A study of Mus musculus with 12 samples.

Results

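The T and B lymphocyte markers are 8 genes, Cd3d, Cd3e, Cd3g, Cd4 and Cd8a for T cells and Cd79a, Cd79b and Ms4a1 for B cells. They were chosen by gene symbol, and every probe that the platform annotation assigns to one of them was kept, which gave 9 of the 25697 probes for 8 of 16593 named genes, with 2 probes for Cd79b. Of the 9 probes, 8 passed a filter on low values. RNA came from mouse hearts, from C57Bl/6 animals housed free of specific pathogens, and was measured on Illumina bead arrays, 1 array per sample. There were 4 arrays each of untreated young mice aged 6 months, of untreated aged mice of 30 to 32 months, and of aged mice of the same age that had been given 3 mM spermidine, a natural polyamine, in their drinking water from the age of 4 months on. The labels give neither the sex of the animals nor the part of the heart, and do not say whether each array is a separate animal, so the p-values below measure the spread between these samples, which may in part be technical.

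T cells recognise antigen with a receptor whose signal is carried into the cell by the CD3 chains. Cd3d, Cd3e and Cd3g encode the delta, epsilon and gamma chains, and Cd4 and Cd8a encode coreceptors that bind class II and class I histocompatibility molecules and separate helper from cytotoxic T cells. B cells signal through membrane immunoglobulin and its partner chains Ig-alpha and Ig-beta, the products of Cd79a and Cd79b, and Ms4a1 encodes the surface protein CD20. An adult heart holds few lymphocytes among its muscle, endothelial and stromal cells, and in RNA of a whole tissue fewer cells of a type and less RNA per cell cannot be told apart.

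The promoter sequences of the 4 members whose levels varied most and for which RefSeq (build GRCm38.p6) gave a window are shown because the 3 CD3 genes lie beside each other and moved together across arrays. Of the 8 members, 5 had a window. Each sequence is the 250 bases before the annotated start, on the strand of the gene, and capitals mark matches on either strand to CACCTG (reverse complement CAGGTG, an E-box of the kind bound by E2A and HEB) or AGGAAG (reverse complement CTTCCT, an ETS motif). Cd3g lies on the minus strand at chr9:44980432-44980681, Cd3d on the plus strand at chr9:44981536-44981785, Cd3e on the minus strand at chr9:45009612-45009861, and Cd79a on the plus strand at chr7:24897247-24897496.
Cd3g: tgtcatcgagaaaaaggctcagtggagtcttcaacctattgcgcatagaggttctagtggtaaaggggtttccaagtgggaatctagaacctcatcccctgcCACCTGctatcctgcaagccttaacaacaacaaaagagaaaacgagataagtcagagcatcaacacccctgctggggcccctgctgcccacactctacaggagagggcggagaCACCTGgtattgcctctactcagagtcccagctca
Cd3d: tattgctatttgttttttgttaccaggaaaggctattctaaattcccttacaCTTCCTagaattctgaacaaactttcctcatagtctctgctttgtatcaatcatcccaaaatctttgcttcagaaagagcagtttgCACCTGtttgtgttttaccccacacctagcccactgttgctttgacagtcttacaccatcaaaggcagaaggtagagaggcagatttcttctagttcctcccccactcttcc
Cd3e: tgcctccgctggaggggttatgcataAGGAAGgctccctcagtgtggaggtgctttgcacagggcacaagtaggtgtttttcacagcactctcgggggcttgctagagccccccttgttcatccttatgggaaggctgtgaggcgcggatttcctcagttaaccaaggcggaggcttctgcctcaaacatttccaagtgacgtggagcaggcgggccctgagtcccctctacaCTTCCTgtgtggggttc
Cd79a: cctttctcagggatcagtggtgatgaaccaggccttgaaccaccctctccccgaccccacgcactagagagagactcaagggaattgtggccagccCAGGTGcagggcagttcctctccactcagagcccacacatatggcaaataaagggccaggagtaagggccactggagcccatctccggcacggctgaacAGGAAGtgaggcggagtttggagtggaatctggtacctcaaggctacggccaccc
CACCTG matched at 2 positions of the Cd3g window, 1 of Cd3d, 1 of Cd79a and 0 of Cd3e, and 17.2% of all 32851 windows of this length hold it. AGGAAG matched at 2 positions of the Cd3e window, 1 of Cd3d, 1 of Cd79a and 0 of Cd3g, against 29.5% of all windows. The RUNX motif TGTGGT (reverse complement ACCACA), which 14% of windows hold, is not in the letters of these 4 windows. The matches are a description of the letters and not of binding.

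The arrays were of similar brightness, with a mean intensity between 259 and 313 and 45.5% to 48.0% of probes above a background limit set from each array's negative values (13.2 to 15.8 intensity units). Over the 12659 probes compared, arrays of 1 group correlated at r = 0.970 to 0.995, and no 2 arrays held identical values. Heart muscle markers were as the tissue label says, with 9 of 9 cardiomyocyte genes above the limit on every array, among them Myh6, the alpha myosin heavy chain, at 16674 to 20004. Ptprc, a pan-leukocyte gene (named outside the rule given below), was at or below 4 on every array and never above the limit. Of the 10 measured genes of its list, 5 to 7 were above the limit on each array. Laptm5 and Coro1a were above it on all 12. Scgb1a1, an airway secretory gene, was 7620 in young replicate 4 and 3005 in spermidine replicate 3 and between -5 and 8 on the other 10 arrays. The airway list was above the limit for 7 genes in the first and 5 in the second of these, and for at most 1 gene elsewhere. Adipoq, the fat cell hormone gene (chosen after its values were seen), was 1165 and 640 on the same 2 arrays and 17 to 176 on the others. The lymphocyte values that rest on these 2 arrays are therefore given with and without them.

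Of the CD3 chain genes, Cd3g was above the background limit in all hearts, Cd3d in 9 of 12 and Cd3e in 6 of 12, and their levels varied more between hearts of 1 group than between groups. Cd3g, the gamma chain, had an intensity of 26, 22, 36 and 241 in young replicates 1 to 4, of 35, 47, 129 and 60 in aged replicates 1 to 4, and of 54, 48, 53 and 30 with spermidine. It was above the limit on all 12 arrays, young replicate 4 was the highest and aged replicate 3 the next, and the groups overlap. Cd3d, the delta chain, was 8, 6, 26 and 154 in the young hearts, 22, 16, 61 and 26 in the aged hearts, and 15, 15, 20 and 9 with spermidine. It passed the limit on 9 arrays, the same 2 arrays led, and the spermidine hearts were the closest to each other. Cd3e, the epsilon chain, was 10, 9, 10 and 93 in the young hearts, 6, 10, 35 and 23 in the aged hearts, and 16, 19, 24 and 13 with spermidine. It was above the limit on 6 arrays, and again young replicate 4 and aged replicate 3 stood highest of their groups.

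**Figure D1:**
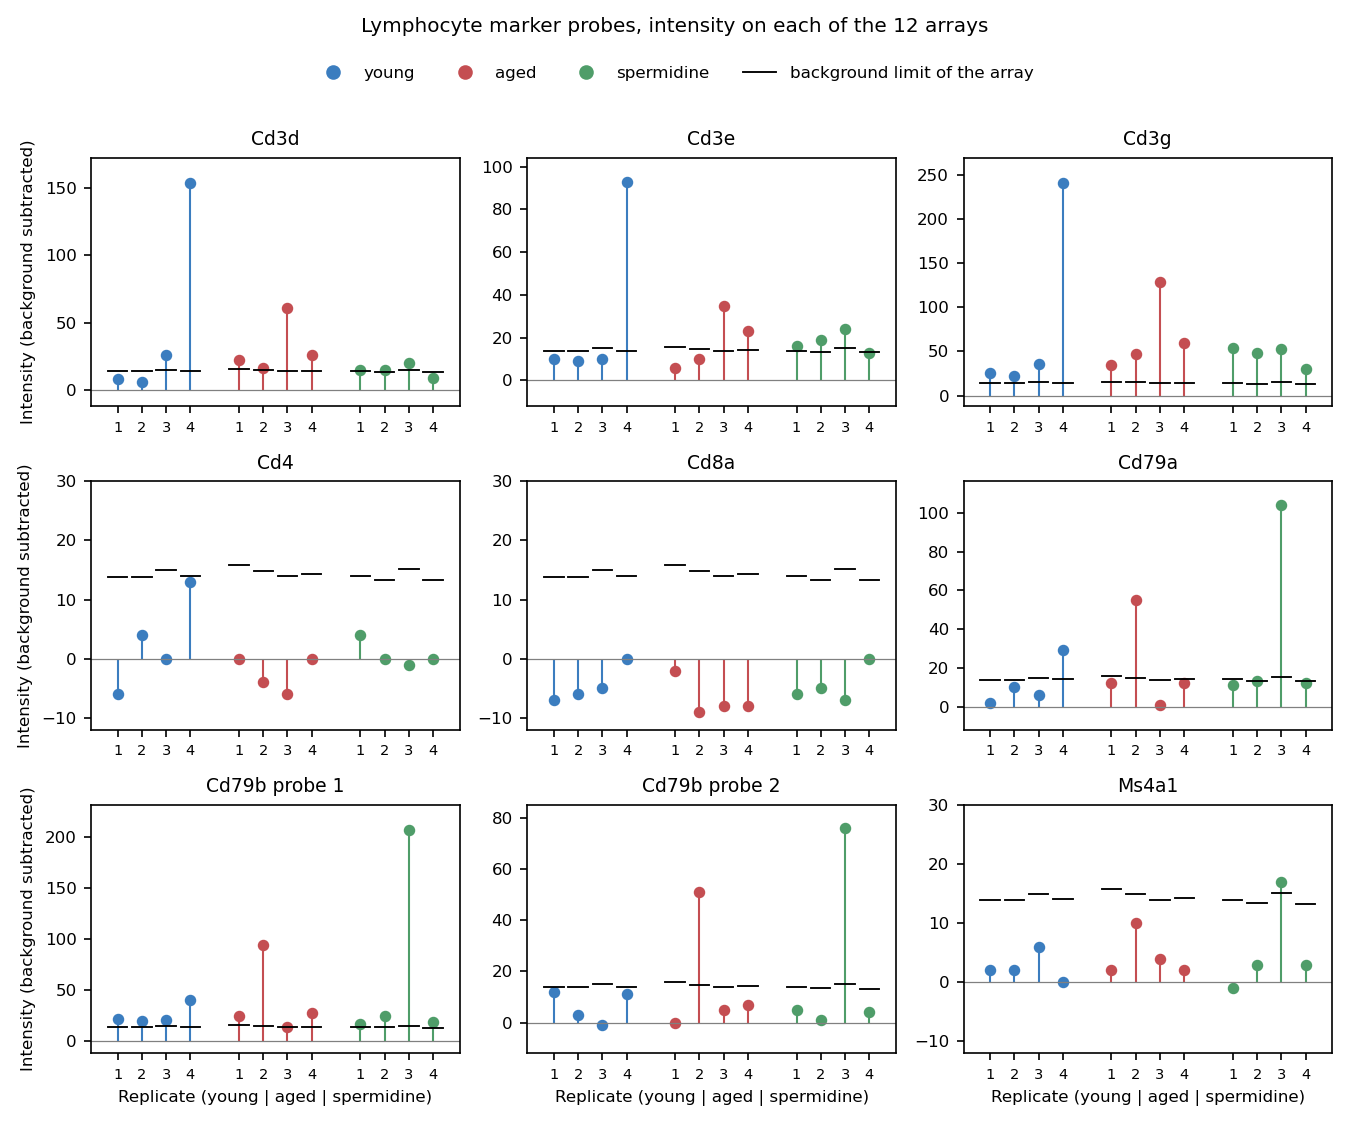
Intensity of each member probe (vertical axis, deposited units, its own linear scale per panel) on the 12 arrays (horizontal axis, replicates by group), 1 point per array, with a dash at that array's background limit. The 3 CD3 probes rise in young replicate 4 (154, 93 and 241) and aged replicate 3 (61, 35 and 129), and Cd79a and Cd79b rise in aged replicate 2 and spermidine replicate 3.

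The coreceptor genes were not measurable. Cd4 read -6, 4, 0 and 13 in the young hearts, 0, -4, -6 and 0 in the aged hearts, and 4, 0, -1 and 0 with spermidine. Cd8a read -7, -6, -5 and 0, then -2, -9, -8 and -8, then -6, -5, -7 and 0 in the same order of groups. Neither probe was above the background limit on any of the 12 arrays, so no fold is read from them, and Cd8a did not pass the filter on low values. The highest Cd4 value of all, 13 in young replicate 4, fell on the array where the CD3 genes were highest.

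The B cell genes were highest in aged replicate 2 and spermidine replicate 3. Cd79b was measured by a brighter probe, called probe 1, and a dimmer one. Probe 1 read 22, 20, 21 and 40 in the young hearts, 25, 94, 14 and 28 in the aged hearts, and 17, 25, 207 and 19 with spermidine, above the limit on all 12 arrays. Probe 2 read 12, 3, -1 and 11, then 0, 51, 5 and 7, then 5, 1, 76 and 4, above the limit on 2 arrays, those where probe 1 was also highest, aged replicate 2 and spermidine replicate 3. Cd79a, the Ig-alpha gene, read 2, 10, 6 and 29 in the young hearts, 12, 55, 1 and 12 in the aged hearts, and 11, 13, 104 and 12 with spermidine, with 1 array above the limit in each group. Ms4a1, the CD20 gene, read 2, 2, 6 and 0, then 2, 10, 4 and 2, then -1, 3, 17 and 3, and passed the limit only in spermidine replicate 3.

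The T and the B cell genes had different highest arrays in the aged group, and partly shared them in the other groups. In the young group, replicate 4 was the highest for 5 of 5 T cell probes and 2 of 4 B cell probes, where it was the highest of its group for 25.7% of all probes kept by the filter. In the aged group, replicate 3 was the highest for 3 of 5 T cell and 0 of 4 B cell probes (19.8% of all kept probes), while replicate 2 was the highest for 4 of 4 B cell and 0 of 5 T cell probes (22% of all kept probes). In the spermidine group, replicate 3 was the highest for 4 of 4 B cell and 2 of 5 T cell probes (21.1% of all kept probes). These counts include ranks of values below the background limit, those of Cd4 and Cd8a in young replicate 4 and of Ms4a1 in aged replicate 2.

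The spread within groups was wide for 6 of the 9 probes and less so for Cd4, Cd8a and Ms4a1. On the log2 scale of the intensity after quantile normalization and an added offset of 16, the pooled within-group SD was 0.87 for Cd3d, Cd3g and Cd79b probe 1, 0.84 for Cd79b probe 2, 0.81 for Cd79a and 0.70 for Cd3e. Of the 20573 kept probes, 98.95% to 99.53% had a smaller SD than these 6. Among probes of like mean level the share was 98.8% to 99.7%. For Cd4, Cd8a and Ms4a1 the SD was 0.44, 0.39 and 0.32, 74.97% to 93.08% of kept probes had a smaller one, and among probes of like mean level 89.62% did for Cd4, 54.41% for Cd8a and 61.99% for Ms4a1. For Cd3g the SD was 1.32 in the young, 0.68 in the aged and 0.21 in the spermidine hearts, while for Cd79b probe 1 it was 0.32, 0.79 and 1.23 in that order. These values rest in large part on 2 arrays. Without young replicate 4 the SD of Cd3g in the young hearts was 0.20, and without spermidine replicate 3 that of Cd79b probe 1 in the spermidine hearts was 0.19. Without both arrays (a setting chosen after seeing the data) the pooled SD was 0.46 for Cd3d, 0.38 for Cd3e, 0.48 for Cd3g, 0.57 for Cd79a, 0.53 for Cd79b probe 1 and 0.63 for probe 2, and 86.43% to 98.7% of kept probes had a smaller one. For Cd4, Cd8a and Ms4a1 the pooled SD was then 0.38, 0.37 and 0.21, with 38.17% to 86.73% of kept probes below it.

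Levels of the CD3 chains followed each other across the 12 arrays, which share 1 tissue and 1 platform. Pearson's r was 0.95 between Cd3d and Cd3g and 0.94 between Cd3e and Cd3g (Spearman's rho 0.76 and 0.85), and without young replicate 4 and aged replicate 3 r was 0.64 and 0.73. Between Cd3d and Cd3e r was 0.88, and 0.24 without those 2 arrays, so that this relation rests on them. Cd79a and Cd79b probe 1 had r = 0.95 (rho 0.86), and 0.81 without spermidine replicate 3 and aged replicate 2. The 2 probes of Cd79b had r = 0.92, and 0.29 without these arrays, where probe 2 is near background. The mean of the 3 CD3 probes and Cd79b probe 1 had r = 0.04 (rho 0.24), and 0.32 without young replicate 4 and aged replicate 3. In all, 15 pairs of member probes were computed and no p-value is given for them.

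**Figure D2:**
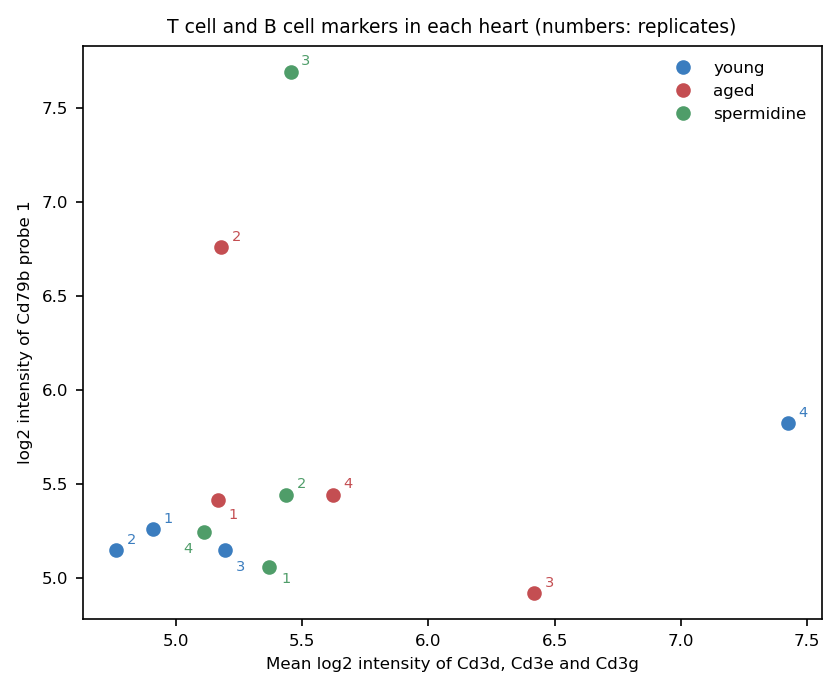
Mean log2 level of Cd3d, Cd3e and Cd3g (horizontal axis) against the log2 level of Cd79b probe 1 (vertical axis), both as log2(normalized intensity + 16), 1 point per array. Young replicate 4 lies far to the right at 7.43 and spermidine replicate 3 far up at 7.70, with aged replicate 2 (6.76 for Cd79b) and aged replicate 3 (6.42 for CD3) on separate arms.

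Other genes with these profiles were sought among 11944 probes above the limit on at least 4 arrays. For the mean of the CD3 probes the 5 genes with the highest Pearson r over the 12 arrays were Cd27 (0.94), Rasgrp1 (0.93), Pde4d (0.92), Acsl5 (0.90) and Clstn3 (0.88). Without young replicate 4, where the profile is highest, r was 0.83, 0.79, 0.73, 0.70 and 0.64 in the same order, and 0 of these 5 genes were still among the 5 highest, which were then Fbxw17, Nkg7, Fpr2, 4933434E20Rik and Retnlg (0.92 to 0.87, chosen after their values were seen). Which 5 genes ranked highest thus depended on the array that also holds transcripts of the airway, fat and thymocyte lists. The r of the first 5 was lower without that array but stayed at 0.64 to 0.83. Cd27 read 114 in young replicate 4 and 9 to 25 on the other arrays. For Cd79b probe 1 the 5 genes were Fcmr (0.95), Mapk12 (0.84), Pou2af1 (0.83), Tmem267 (0.83) and Mzb1 (0.82), and without spermidine replicate 3 their r was 0.86, 0.76, 0.85, 0.60 and 0.49, and 2 of the 5, Fcmr and Pou2af1, were still among the 5 highest. Fcmr read 99 in spermidine replicate 3, 41 in aged replicate 2 and 7 to 22 on the other arrays. Pou2af1 read 104 in aged replicate 2, 67 in spermidine replicate 3 and 0 to 23 elsewhere.

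The arrays that led for the CD3 genes differed in what else was high. In young replicate 4, 8 of 11 measured genes of the thymocyte list were above the limit, against 2 to 5 on the other 11 arrays. That list is not confined to thymocytes. It holds genes of thymic epithelium, Prss16 and Foxn1, and Satb1 and Cd1d1 were above the limit on all 12 arrays. Rag1, a subunit of the recombinase that assembles antigen receptor genes, read 53 there and 1 to 11 elsewhere. Dntt, which adds bases at receptor gene joins (chosen after its values were seen), read 23 there and at most 3 elsewhere. Prss16, a protease of thymic epithelium, read 35 there and 0 to 8 elsewhere. Rag2 (-7), Foxn1 (-2), Ptcra (20), Satb1 (727) and Bcl11b (48), also of the list, were not highest there (named after their values were seen). Cd8b1, the CD8 beta chain, read 561 on its brighter probe and 63 on the other in that array, where Cd8a was at 0, and the other 11 arrays lay between 3 and 27 on the brighter probe. In aged replicate 3 Rag1 was 4 and Cd8b1 was 3. Nkg7, a granule gene of cytotoxic lymphocytes, read 103 in aged replicate 3 and 13 to 49 elsewhere, and the chemokine gene Ccl5 (chosen after its values were seen) read 85 there and 22 to 51 elsewhere. Of the cytotoxic list of Nkg7, Ctsw (57), Klrd1 (21) and Klrb1c (13) were also highest there. Its other genes were not, among them Gzma (-5), Gzmb (-7) and Prf1 (97), all named after their values were seen. H2-Ab1, a class II histocompatibility gene, read 2080 there on the probe used and 604 to 1681 elsewhere. The part of transcripts of the thymocyte, airway or fat lists in the CD3 values of young replicate 4 was not tested.

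Other B cell genes were read on the same arrays. Of 17 measured genes of B cell signalling and identity, 10 were above the limit in spermidine replicate 3, 8 in young replicate 4, 7 in aged replicate 2 and 2 to 6 on the other arrays. Blk, a kinase of the B cell receptor (chosen after its values were seen, like Cxcr5), read 74 and 30 on these 2 arrays and -2 to 18 elsewhere. Cxcr5, the follicle homing receptor, read 58 in spermidine replicate 3 and -3 to 11 elsewhere, aged replicate 2 included. In spermidine replicate 3 Cd22 (-2), Cr2 (1), Tnfrsf13c (1) and Blnk (5) of the same list were below the limit (named after their values were seen). Mzb1, a chaperone for immunoglobulin from the plasma cell list, read 203 in spermidine replicate 3, 81 in aged replicate 2, 81 in young replicate 4 and 28 to 71 on the others. The other measured genes of the plasma cell list were not highest in spermidine replicate 3, among them Xbp1 (1473) and Jchain (-3, named after its values were seen). In aged replicate 2 Scgb1a1 was at -1, but fat genes were high for the aged group on both of its leading arrays: Adipoq read 176 in aged replicate 2 and 173 in aged replicate 3, against 25 and 46 in the other aged hearts. Ucp1, the brown fat uncoupling gene (chosen after its values were seen), read 159 and 207 on those arrays, against 3 and 17. In the other groups Ucp1 read 89, 7, 69 and 1689 in young replicates 1 to 4. It read -9, 9, 62 and 67 in spermidine replicates 1 to 4, so that spermidine replicate 3 was not the highest of its group. The mean level of the fat list was 0.26 and 0.24 above the mean of all arrays in aged replicates 2 and 3, and 0.78 above it in spermidine replicate 3. The part of the airway and fat transcripts in the lymphocyte values of these arrays was not tested.

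**Figure D3:**
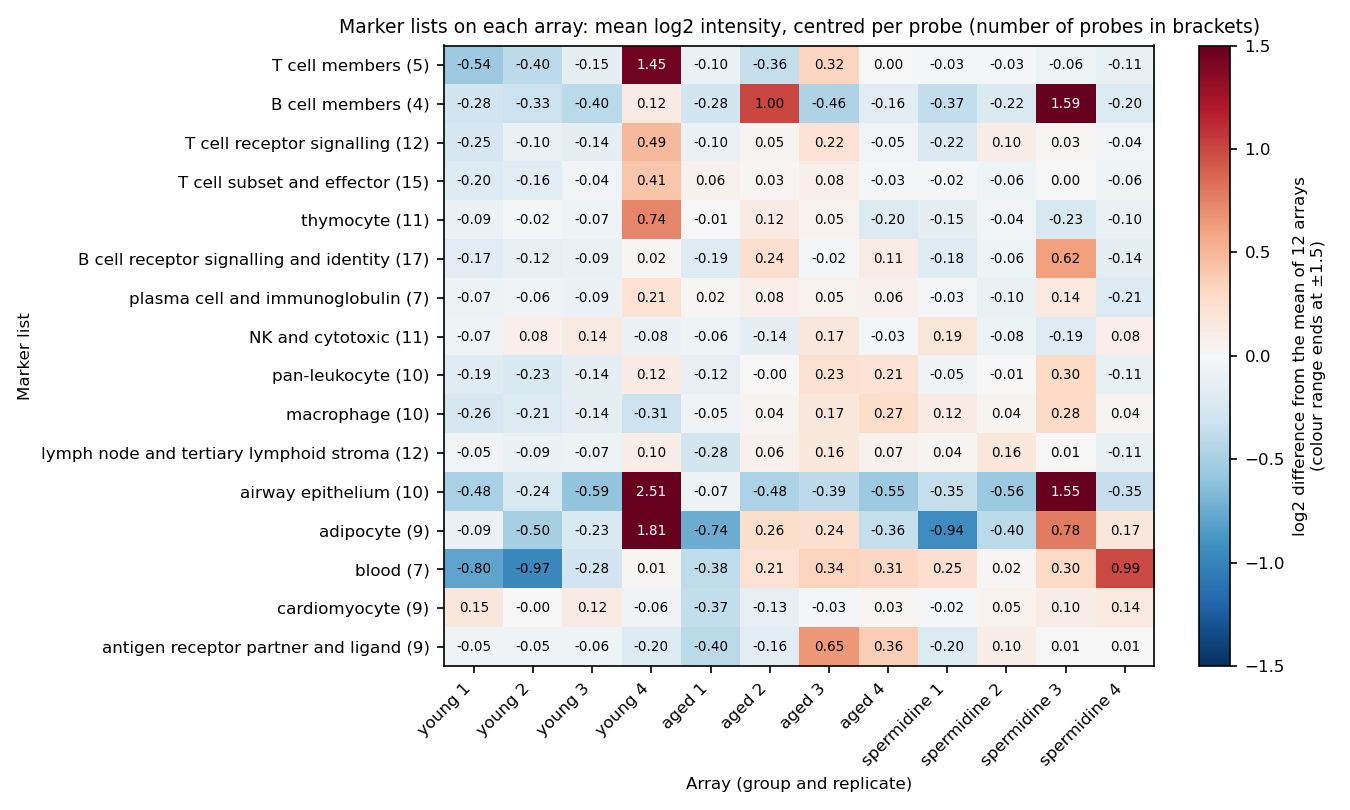
Mean log2 difference of each array from the mean of all 12 arrays, over the genes of each marker list (rows of the map) and for each array (columns), coloured from blue for lower to red for higher with the colour range ending at 1.5. In young replicate 4 the T cell members reach 1.45, the thymocyte list 0.74 and the airway list 2.51. In spermidine replicate 3 the B cell members reach 1.59, the list of B cell signalling and identity 0.62 and the airway list 1.55.

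The first comparison asks whether lymphocyte transcripts differ between aged and young hearts. The mean log2 level of Cd3g was 6.07 ± 1.32 (SD, n = 4) in the young and 6.28 ± 0.68 (SD, n = 4) in the aged hearts, a difference of 0.21 with an SE of 0.51 (95% interval -0.89 to 1.31). Cd3d differed by 0.03 (-1.07 to 1.14) and Cd3e by -0.17 (-1.07 to 0.72). Cd79b probe 1 was 5.34 ± 0.32 in the young and 5.63 ± 0.79 in the aged hearts, a difference of 0.29 (-0.81 to 1.39), and Cd79a differed by 0.26 (-0.78 to 1.29). In limma's moderated test with Benjamini-Hochberg adjustment over all kept probes, 0 of 9 member probes passed an adjusted p of 0.05, where 0.797% of all kept probes did, and 0 of 9 passed at an unadjusted p of 0.05, where 14.3% of all did. Cd8a, which the filter dropped, takes its p from the fit without the filter. Adjusted p ran from 0.546 to 0.985. The median difference over the 9 probes was 0.14, against -0.01 over all kept probes, with 6 higher and 3 lower. The intervals are wide, and the added offset makes log2 differences of probes as dim as these smaller than those of the intensities themselves.

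This comparison depended on single arrays. Without young replicate 4, Cd3g was higher in the aged hearts by 0.87 (SE 0.29) with an adjusted p of 0.239, and Cd3d by 0.70 (SE 0.28) with an adjusted p of 0.323 in limma's test. Those 2 of the 8 kept member probes were then under an unadjusted p of 0.05, with 0.0109 for Cd3g and 0.0297 for Cd3d, where 6.58% of all kept probes were higher at that level, and 0 of 8 passed after adjustment, where 0.365% of all did. Cd3e differed by 0.36 with an adjusted p of 0.558. Without aged replicate 3 Cd3g differed by -0.12 and Cd3e by -0.39. Without aged replicate 2 the differences of Cd79a and Cd79b probe 1 were -0.13 and -0.086.

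The second comparison asks whether these transcripts differ between aged hearts with and without spermidine from the age of 4 months. Cd3d was 4.95 ± 0.17 (SD, n = 4) with spermidine and 5.48 ± 0.58 (SD, n = 4) without, a difference of -0.54 (SE 0.51, 95% interval -1.64 to 0.57). The limma adjusted p for Cd3d was 0.764, and the exact two-sided permutation p was 0.1143, where 4 against 4 arrays cannot go below 0.0286. That exact p was the smallest of the 27 computed for the member probes over all comparisons. Cd3g differed by -0.30 and Cd3e by 0.07. Cd79a differed by 0.39 (-0.65 to 1.42) and Cd79b probe 1 by 0.23. Without spermidine replicate 3 these 2 differences were -0.10 and -0.39, so that their sign rests on that array. Of the 9 probes, 0 passed an adjusted p of 0.05 (0.00486% of all kept probes) and 0 passed at an unadjusted p of 0.05 (9.45% of all), with adjusted p from 0.719 to 0.994. The median difference was 0.09 against 0.00 over all kept probes.

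Treated aged hearts were also set against young hearts, and these values share the young and spermidine arrays with the comparisons above. Cd79a differed by 0.64 (-0.39 to 1.68) and Cd79b probe 1 by 0.52, and Cd3d, Cd3e and Cd3g differed by -0.50, -0.10 and -0.09. Again 0 of 9 probes passed an adjusted p of 0.05 (0.16% of all kept probes) or an unadjusted p of 0.05 (7.49% of all), with adjusted p in limma's test from 0.885 to 0.997. Without young replicate 4 and spermidine replicate 3 the differences were 0.56 for Cd3g, 0.38 for Cd3e, 0.42 for Cd79a and 0.06 for Cd79b probe 1, with 0 of 8 kept probes past the adjusted threshold (0.0583% of all). The blood list, mostly red cell genes, lay between -0.97 and 0.01 in the young and between 0.02 and 0.99 in the spermidine hearts (mean log2 difference from all arrays), with 0 of its 7 kept genes past the adjusted threshold and 7 of 7 higher at an unadjusted p of 0.05, and its part in the lymphocyte values was not tested.

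**Figure D4:**
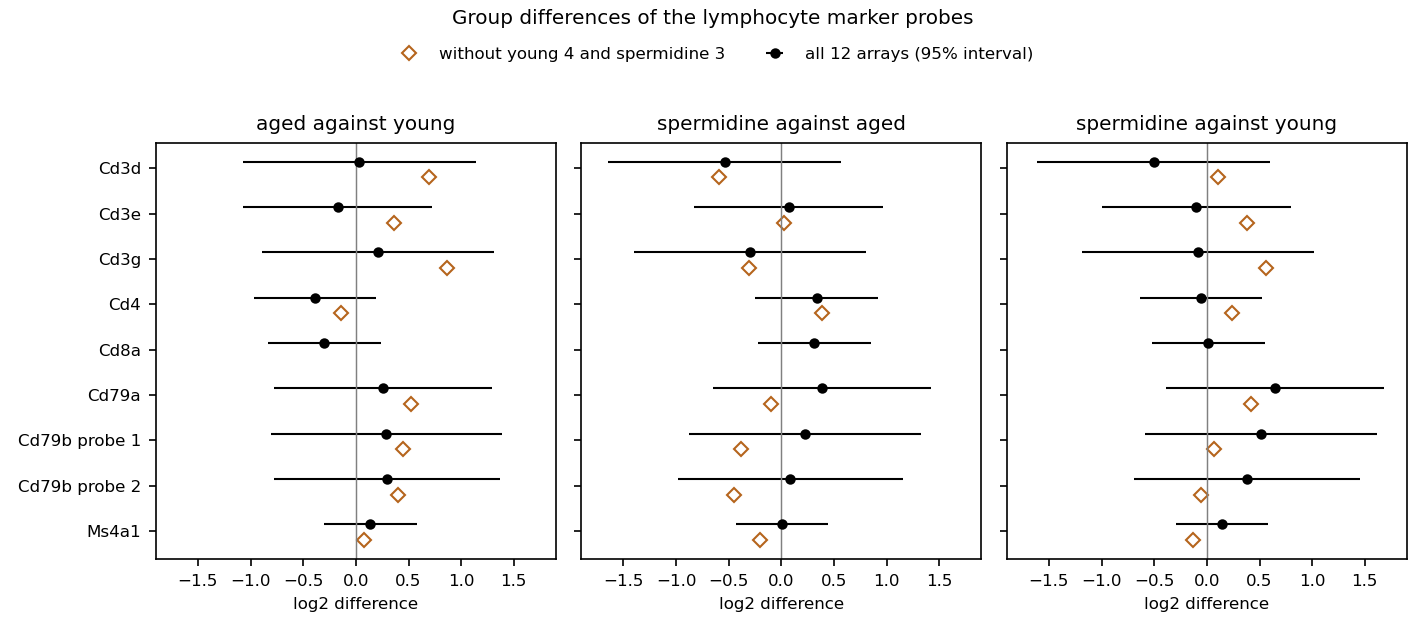
Log2 difference of each member probe in the 3 comparisons (horizontal axis) with its 95% interval from limma, and, as open diamonds without an interval, the same difference without young replicate 4 and spermidine replicate 3 (not for Cd8a, which the filter dropped). Cd4 and Cd8a were below the background limit on every array. Intervals of all 9 probes cross 0 with all arrays, and Cd3g in aged against young hearts moves from 0.21 to 0.87.

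Other genes were read in lists. Over 14 lists of receptor signalling, subset, B cell and other cell type genes, 1 of 130 kept genes passed an adjusted p of 0.05 between aged and young hearts (0.769%, against 0.797% of all kept probes), 0 between spermidine and aged, and 0 between spermidine and young hearts. At an unadjusted p of 0.05 the counts were 16, 11 and 20, or 12.3%, 8.46% and 15.4% of the 130 genes, against 14.3%, 9.45% and 7.49% of all kept probes. Of the 20 genes between spermidine and young hearts, 7 were blood and 7 were macrophage genes, all higher with spermidine. The 1 gene was C1qc, a complement subunit made by macrophages, at 569 to 744 in the young and 861 to 1213 in the aged hearts (log2 difference 0.72, adjusted p 0.0421 in limma's test). Leaving out 1 array at a time gave 0 to 2 such genes in the lists. Of 10 kept genes of T cell receptor signalling, 0 passed in either direction in any comparison. Between aged and young hearts their median differed by 0.15, and 7 of the 10 were higher in the aged hearts. Cd247 and Fyb were higher by 0.19 and 0.27 (adjusted p 0.592 and 0.595 in limma's test), while the 2 genes with the smallest p, Lat and Cd28, were lower. Lat, the adaptor that links the receptor to signalling, differed by -0.49 (adjusted p 0.564) with 32 in young replicate 4 and at most 2 elsewhere, and Cd28, a costimulatory receptor, differed by -0.18 with 33 to 64 on all arrays. Of 13 T cell subset and effector genes 0 passed, with Il7r, the interleukin-7 receptor, at 14 to 23 in young and 18 to 40 in aged hearts (difference 0.32, adjusted p 0.412). Of 17 B cell genes 0 passed adjustment and the median was 0.15. Btk, a kinase of the B cell receptor pathway, had the smallest p among them, with 25 to 33 in young and 39 to 48 in aged hearts (difference 0.39, adjusted p 0.291), and Pou2af1, a B cell coactivator, differed by 0.73 with an adjusted p of 0.561. The thymocyte list had a median of -0.30 in that comparison, and -0.06 without young replicate 4 and spermidine replicate 3.

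Genes of lymphoid tissue, chemokines among them, were read beside the lymphocyte genes. Ltb, the lymphotoxin beta gene (named outside the rule given below), was 5 to 25 in the young and 14 to 28 in the aged hearts (difference 0.48, adjusted p 0.306 in limma's test). Ccl21a, a chemokine for T cells, was 850 to 1144 in the young and 740 to 863 in the aged hearts (difference -0.39, adjusted p 0.241). Ccl21b and Ccl21c differed by -0.48 and -0.39. The chemokine gene Ccl19 went the other way, with 44 to 51 in the young and 44 to 88 in the aged hearts (difference 0.40, adjusted p 0.282 in limma's test). Cxcl13, the B cell chemokine, chosen after its values were seen, was 24, 27, 35 and 38 in the young, 6, 214, 126 and 110 in the aged and 48, 86, 151 and 52 in the spermidine hearts. Its difference between aged and young hearts was 1.11 with an adjusted p of 0.376, and aged replicate 2, where Cd79a and Cd79b were highest of the aged hearts, was also the highest for Cxcl13.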

How the data were processed

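The values are bead array intensities from a deposited table without normalization, with 1 column per array. The sources used here do not give detection p-values, slides or scan dates for it, and 24.07% of its intensity values lie below 0. RNA was extracted with an RNeasy kit and Trizol and labelled with biotin, per the labels' protocols. The submitters also deposited a normalized table of intensity values, used only as an alternative. How those deposited values were normalized is not given in the sources used here. Gene symbols came from the platform annotation, which gave 23978 of 25697 probes 1 symbol and 1719 none, and 23962 were matched to RefSeq by Entrez ID.

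Intensities were quantile normalized between the 12 arrays, an offset of 16 was added, values under 1 were set to 1, and log2 was taken. Probes above the 25th percentile of their array on at least 4 of 12 arrays were kept (20573, or 80.06%). The 3 groups of 4 were fitted in 1 model with limma 3.58.1 in R 4.3.3 (9 residual degrees of freedom), with adjustment by Benjamini-Hochberg over all kept probes, threshold 0.05. The background limit is 3 SDs of the negative values mirrored about 0. The number of arrays limits the precision. The scripts were tested on simulated data. Alternatives were the submitters' values, scaling to the 75th percentile, offsets of 4 and 64, other filters, only the 2 groups compared, a replicate block and leaving out arrays.

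The members and the marker lists were chosen with earlier results of these data known. Named genes are all members, of each list up to 4 genes by smallest p in the comparison described or by highest mean, and the 5 genes most like each profile. Genes outside this rule are marked. Where a list gene had several probes, the one with the highest mean was used.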

Additional observations from a re-analysis of the deposited data

Results flagged for a closer look

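In 7 of 27 groups of 4 arrays, the highest array of a member probe stood apart by Dixon's test. There its gap to the nearest array, divided by the range of the group, exceeded the 95% critical value. The critical value is two-sided: for normally distributed values about 1 in 20 groups would exceed it at either end, and fewer at the highest array alone. The share of all kept probes flagged in this way was not computed, so the count is not read as particular to the members. In the young group the array was replicate 4, with a ratio of 0.9566 for Cd3e (log2 level 6.80, nearest 4.72), 0.8586 for Cd3g (8.04, nearest 5.61) and 0.8311 for Cd79b probe 1 (5.82, nearest 5.26). In the spermidine group it was replicate 3, with 0.9295 for Cd79a (6.80, nearest 4.90), 0.8544 for Cd79b probe 1 (7.70, nearest 5.44) and 0.8722 for Cd79b probe 2 (6.43, nearest 4.39). These 2 arrays are those with airway transcripts, whose part in the values was not tested. In the aged group Cd8a had a ratio of 0.9006 for replicate 1 (3.85, nearest 3.02), a probe below the background limit on all arrays. Probes of a group share their arrays, so these cases are not independent.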

How the results depend on the processing

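Of the tests of member probes 0 passed an adjusted p of 0.05 in limma's test under any setting run, with 27 tests without the filter, 12 with the filter at the background limit (Cd3d, Cd3e, Cd3g and Cd79b probe 1 only) and 24 elsewhere, where Cd8a was not kept. Of 231 member values under other settings 216 kept their direction and 15 reversed, and of 288 with 1 array left out 255 kept it and 33 reversed. The cause was not tested. The reversed values (log2) were, between aged and young hearts, -0.013 for Cd3d with the submitters' values, -0.080 with an offset of 64, and 0.36 for Cd3e without young replicate 4 and spermidine replicate 3. Without those 2 arrays, between spermidine and aged hearts, Cd79a was -0.10, Cd79b probe 1 -0.39, probe 2 -0.45 and Ms4a1 -0.21, and between spermidine and young hearts Cd3d was 0.11, Cd3e 0.38, Cd3g 0.56, Cd4 0.24, Cd79b probe 2 -0.055 and Ms4a1 -0.13. With an offset of 4, Ms4a1 was -0.14 between spermidine and aged and Cd3e 0.0055 between spermidine and young hearts. Leaving out 1 array at a time gave, between aged and young hearts, -0.30 to 0.70 for Cd3d, -0.39 to 0.36 for Cd3e, -0.12 to 0.87 for Cd3g, -0.66 to -0.14 for Cd4, -0.13 to 0.55 for Cd79a, -0.086 to 0.53 for Cd79b probe 1, -0.14 to 0.53 for Cd79b probe 2, 0.026 to 0.22 for Ms4a1. Between spermidine and aged hearts it gave -0.72 to -0.26 for Cd3d, -0.11 to 0.29 for Cd3e, -0.48 to 0.027 for Cd3g, 0.19 to 0.43 for Cd4, -0.099 to 0.77 for Cd79a, -0.39 to 0.60 for Cd79b probe 1, -0.45 to 0.51 for Cd79b probe 2, -0.21 to 0.16 for Ms4a1. Between spermidine and young hearts it gave -0.84 to 0.16 for Cd3d, -0.29 to 0.43 for Cd3e, -0.37 to 0.57 for Cd3g, -0.33 to 0.19 for Cd4, 0.16 to 0.91 for Cd79a, -0.095 to 0.78 for Cd79b probe 1, -0.16 to 0.62 for Cd79b probe 2, -0.068 to 0.30 for Ms4a1.

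Counts of called probes moved more. Between aged and young hearts 164 probes were called, against 299 with the submitters' values, 70 with an offset of 4, 373 with 64, 90 with no filter, 331 with a filter at the background limit, 97 from only these 2 groups, 96 with a replicate block, 70 without young replicate 4 and spermidine replicate 3, and 41 to 559 with 1 array left out. Between spermidine and aged hearts the count of 1 was 0 with an offset of 4, 64 or the replicate block, with 1758, 2126 and 2006 probes at an unadjusted p of 0.05, and 0 to 49 with 1 array left out. Between spermidine and young hearts 33 became 51 from only these 2 groups, 12 without both arrays and 16 to 48 with 1 left out. Of the list genes 1 was called, against 3 with the submitters' values, an offset of 64 or the background limit filter, 0 with an offset of 4, no filter or without both arrays, and 0 to 2 with 1 left out. The replicate numbers do not pair the arrays: same-numbered arrays correlated at -0.26 to 0.18 in their deviations, 3 of 12 pairs over 0.1, and 4 of 12 arrays were nearest to their own number. The replicate block changed no call on a member. A block for the slide was not run, because the sources used here give no slide. Low signal limits Cd4, Cd8a, Cd79a, Cd79b probe 2 and Ms4a1, which lie mostly below the background limit.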
